A study of Mus musculus with 52 samples.

Results

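Cdc42 and 6 small proteins that bind it were followed in mouse brain: the GTPase Cdc42 itself, Cdc42se1 and Cdc42se2, and the Borg proteins Cdc42ep1, Cdc42ep2, Cdc42ep3 and Cdc42ep4. The 7 genes were taken by name from 48526 listed genes, and all 7 passed the filter on low values at every age. The set was chosen by the measured level of Cdc42se2, which had been seen to be lower in knockout than in wild-type hippocampus at P30. Differences between the genotypes in that region at that age therefore describe the choice and are given without a test.

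Poly-A RNA was sequenced from brains of wild-type mice (WT) and of mice with a knockout (KO) of Mir146, the gene of miR-146a. Embryos at stage E14 gave whole cortex (5 KO and 4 WT). At postnatal stage P30, 3 regions were dissected from 4 KO and 4 WT each: amygdala, frontal cortex and hippocampus. At P60 there were 4 KO and 3 WT for the amygdala, 4 KO and 3 WT for the frontal cortex, and 2 KO and 3 WT for the hippocampus. The strain and the way the gene was removed were not given in the sources used here. Per the series' design text, the mice within a genotype had different mothers.

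Cdc42 is a small GTPase. It switches between a GTP-bound form, which binds effectors, and a GDP-bound form, under the control of exchange factors (GEFs), GTPase-activating proteins (GAPs) and dissociation inhibitors (GDIs). In neurons it is known for its part in actin remodelling, axon specification and dendritic spines. Cdc42se1 and Cdc42se2 are short proteins that bind active Cdc42 through a CRIB motif and influence actin, and the Borg proteins bind both Cdc42 and septins, which form filaments beneath the membrane.

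A microRNA lowers its targets mainly through matches to its seed, bases 2 to 8, in their 3′ untranslated regions (UTRs). The sequence of the microRNA removed here is shown with that of its relative miR-146b, which comes from another gene. Capitals mark the seed, which both share, and both sequences are from RefSeq (GRCm38.p6):
mmu-miR-146a-5p: uGAGAACUgaauuccauggguu
mmu-miR-146b-5p: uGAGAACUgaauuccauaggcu

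The annotated 3′ UTRs (GENCODE M21, GRCm38) were searched on the transcript strand for AGTTCTC, the match to bases 2 to 8, and for GTTCTCA, the match to bases 2 to 7 followed by A. These motifs overlap in a full match. Of the 7 genes only Cdc42ep1 held either, as 1 GTTCTCA at base 361 of its 966-base UTR, shown because it is the only match among the members, with the motif in capitals:
Cdc42ep1 3′ UTR: ctccactgtGTTCTCAgtagcgcg
Of 21045 genes with an annotated 3′ UTR, 3817 (18.1%) held a match. Among 2674 genes whose UTR was within 20% of the length of that of Cdc42ep1, the share was 11.4%. The 2285-base UTR of Cdc42se2 held no match, and 29.6% of 2727 genes of like UTR length held one. A match describes these letters and is not a measured binding site.

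Values are normalised read counts (CPM), scaled by the authors to an effective library size, and a library held between 2933026 and 9469214 recovered reads. Mir146 itself (chromosome 11, 43374397 to 43374461, GRCm38) had 1 read in 1 of 52 libraries, and poly-A libraries do not capture mature microRNAs, so it does not check the genotypes. Some libraries stood apart in markers of other regions or cells. In the P60 hippocampus the libraries numbered 1 of both genotypes had summed values of 5 amygdala markers of 304 (WT) and 228 (KO), against 26.0 to 49.4 in the other 3. Their 5 hippocampus markers summed to 2044 and 1936, against 4238 to 4693 in the others, so these libraries go partly against their region label. In the P30 hippocampus, WT replicate 3 had 5457 for 5 choroid plexus markers, against 40.4 to 193 in the other WT libraries, and 17586 for 6 myelin markers. In the P30 amygdala, WT replicate 3 was lowest in the 5 amygdala markers (192 against 242 to 297) and highest in striatum (176 against 37.6 to 51.8) and frontal cortex markers (465 against 234 to 276), and WT replicate 1 had 1227 for choroid plexus. In whole tissue, fewer cells of a type and less RNA per cell cannot be told apart.

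The genes differed widely in level. Per kilobase of exon, Cdc42 came first in every WT group, at 103 per kb in E14 cortex and 59.6 to 71.2 per kb after birth, or 54.4% to 57.9% of the summed level of the 7. Cdc42se2 was second in every WT group, at 20.97 to 27.4 per kb, and Cdc42se1 came after it, at 12.2 to 21.6 per kb. The libraries of Cdc42 lay above those of Cdc42se2, and those of Cdc42se2 above those of Cdc42se1, in all 7 WT groups. Cdc42ep4 followed Cdc42se1 in 6 of the 7 WT groups, and its libraries overlapped those of Cdc42se1 at E14. In the P30 hippocampus Cdc42ep1 (5.93 per kb) and Cdc42ep4 (5.91 per kb) overlapped. The lowest places went to Cdc42ep1, Cdc42ep2 and Cdc42ep3, whose order changed between groups and whose libraries often overlapped. In Cdc42ep3 and Cdc42ep2 the lowest libraries held 1 and 7 reads, so their values carry a large counting error.

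Cdc42se2 (ENSMUSG00000052298; chromosome 11, 54717456 to 54787675, minus strand, GRCm38) had a lower mean in KO than in WT in 5 of the 6 comparisons that the choice of genes did not use. All KO libraries lay below all WT libraries in 3 of these 6, the 3 regions at P60. Same-numbered libraries of different regions may come from the same animal, so the comparisons counted may not be independent. The KO mean was 58.4% of the WT mean in the P60 hippocampus, 74.99% in the P60 amygdala and 76.9% in the P60 frontal cortex. Of the comparisons that could be tested, only that of the P60 hippocampus passed. In the P30 amygdala and P30 frontal cortex 0 of 7 members had genotypes that did not overlap, where 6.66% and 2.36% of genes tested did.

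**Figure D1:**
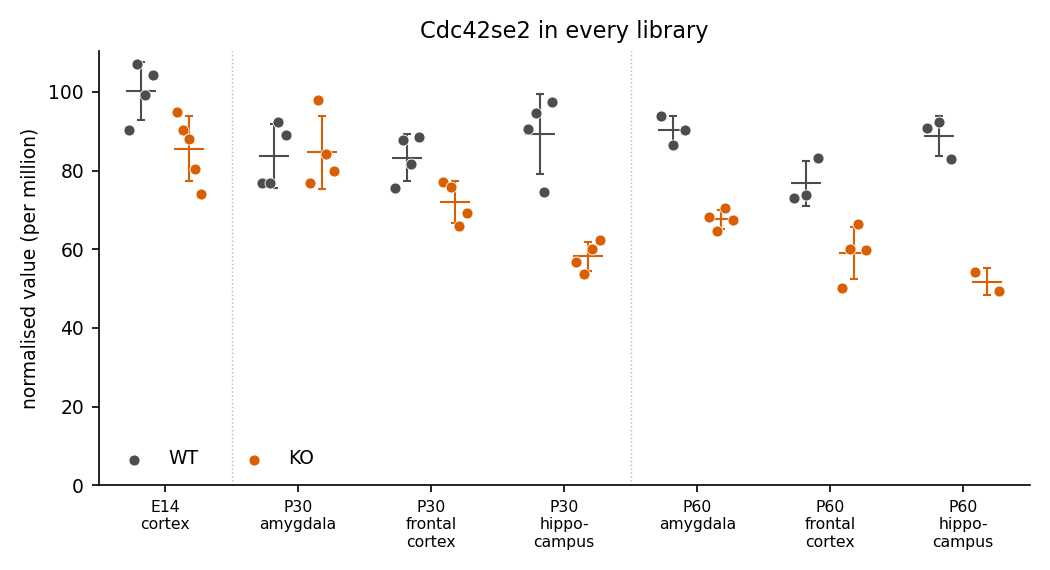
Cdc42se2 as a normalised read count (CPM, y axis) in every library, by age and region (x axis); dots are libraries, long dashes are means and bars are SD, with WT in grey and KO in orange. The KO libraries sit below all WT libraries in the P30 hippocampus and in the 3 regions at P60, and the genotypes overlap in the E14 cortex, P30 amygdala and P30 frontal cortex.

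In the P60 hippocampus Cdc42se2 was 54.21 and 49.40 in the KO libraries and 90.83, 92.37 and 82.92 in the WT libraries. Both KO libraries were well below the lowest WT library. The gene fell by 0.76 on the log2(value + 1) scale (SE 0.102, 95% interval -0.98 to -0.55), with a Benjamini-Hochberg adjusted p of 0.00264 over 19256 genes (limma). It was 1 of 7 members called, where 0.0208% of all genes tested were called (0.0156% as lower) and 5.56% had KO below WT without overlap. The KO group held only 2 libraries, and their spread was taken as that of the whole P60 fit. The difference was called in 12 of 15 other settings, and lost its call without KO replicate 2 (-0.70, adjusted p 0.145, limma), when only the groups compared entered the fit (adjusted p 1.00), and without both libraries numbered 1 (-0.81, adjusted p 0.0799), which leaves 1 KO library.

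The KO library that carried amygdala markers gave 54.21 for Cdc42se2, and the one that did not gave 49.40. The corresponding WT libraries gave 90.83 against 92.37 and 82.92. In the P60 amygdala the mean of Cdc42se2 was 67.7 in KO and 90.2 in WT. The part of amygdala tissue in the hippocampus values was not tested. Of 6 myelin markers, 0 had a lower KO mean in the P60 hippocampus. Of 6 neuronal markers 5 had a lower KO mean there, with a median log2 difference of -0.05, and 0 were called. Lower KO means were also seen for 6 of 6 astrocyte markers (median -0.12) and 4 of 5 endothelial markers (median -0.19). The same held for 3 of 5 microglial markers (median -0.07) and 3 of 4 oligodendrocyte precursor markers (median -0.03), and 0 of these were called. The part of cell composition in the difference of Cdc42se2 was not tested. Sex was read from the data, which gave 1 female among the 2 KO libraries and 1 among the 3 WT libraries. With sex in the fit the difference was -0.76 (adjusted p 0.00480, limma).

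In the P60 amygdala Cdc42se2 was 68.14, 64.57, 70.51 and 67.43 in KO and 93.88, 86.48 and 90.34 in WT. The genotypes did not overlap, and within each the libraries lay close together. The log2 difference was -0.41 (SE 0.0856, 95% interval -0.59 to -0.23), with an unadjusted p of 0.000122 and an adjusted p of 0.330 (limma), so it was not called among 19256 genes. All KO libraries lay below all WT libraries for 2.64% of genes tested in this region, and 0.0208% were called.

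In the P60 frontal cortex the KO libraries gave 50.12, 59.99, 66.31 and 59.72 and the WT libraries 73.15, 73.82 and 83.30. The highest KO library was below the lowest WT library. The log2 difference was -0.38 (SE 0.0856, 95% interval -0.56 to -0.20), with an adjusted p of 0.618 (limma), which did not pass. Of all genes tested there, 0.0312% were called, and KO lay below WT without overlap for 2.58%. The KO minus WT difference of Cdc42se2 in the P60 hippocampus was -0.39 beyond that in the frontal cortex (95% interval -0.67 to -0.11, unadjusted p 0.00905) and -0.35 beyond that in the amygdala (95% interval -0.63 to -0.08, unadjusted p 0.0154). Both had an adjusted p of 1.00 (limma, interaction terms, libraries of different regions taken as independent), so a difference between the regions was not called. Of 4 interaction terms tested, each called 0 members and 0 genes (0%).

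At P30, by contrast, the genotypes overlapped outside the hippocampus. In the P30 amygdala Cdc42se2 was 76.74, 97.90, 84.13 and 80.01 in KO and 76.85, 76.90, 92.43 and 89.15 in WT. The ranges were almost the same, and the log2 difference was 0.013 (95% interval -0.17 to 0.20, adjusted p 0.981, limma), a sign that changed when single libraries were left out. In the P30 frontal cortex it was 77.17, 75.86, 65.89 and 69.23 in KO and 75.48, 87.81, 81.57 and 88.47 in WT. There 2 KO libraries lay above the lowest WT library, and the log2 difference was -0.21 (95% interval -0.39 to -0.02, adjusted p 1.00, limma). The share of genes called was 0.0264% in the P30 amygdala and 0.0159% in the P30 frontal cortex. At P30 each KO group held 3 females and 1 male and each WT group 1 female and 3 males.

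In the P30 hippocampus, the comparison that led to the choice, Cdc42se2 was 56.84, 53.80, 60 and 62.34 in KO and 90.52, 94.60, 74.60 and 97.48 in WT. The KO libraries formed a tight group below all WT libraries, the lowest of which was the library rich in choroid plexus markers. The mean was 58.2 ± 3.72 (SD, n = 4) in KO and 89.3 ± 10.2 (n = 4) in WT, a log2 difference of -0.60, which ranged from -0.69 to -0.56 as single libraries were left out. The share of genes called in this comparison was 0.0317%, and KO lay below WT without overlap for 1.64%.

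In the E14 cortex Cdc42se2 was 94.81, 90.36, 88.00, 80.52 and 74.16 in KO and 90.32, 107.00, 99.30 and 104.18 in WT. The 2 highest KO libraries exceeded the lowest WT library. The log2 difference was -0.23 (SE 0.0829, 95% interval -0.41 to -0.05), with an unadjusted p of 0.0183 and an adjusted p of 1.00 (limma), where 0.049% of genes were called.

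The position of Cdc42se2 sets it beside other genes that differed between the genotypes. It lies 11.41 Mb from Mir146 on the same chromosome. Of 31 annotated genes within 500 kb of it, 14 were tested in each setting, and between 1 and 3 were called in every setting. Lyrm7, an assembly factor of mitochondrial complex III whose start is 73.2 kb from that of Cdc42se2, was higher in KO in all 7 settings. In the P60 hippocampus it was 20.7 ± 1.23 (SD, n = 2) in KO and 10.4 ± 1.26 (n = 3) in WT, opposite in direction to Cdc42se2. Gm2a, an activator of ganglioside breakdown 310.4 kb away, was called lower in the P30 amygdala (54.3 ± 1.67 against 73.4 ± 7.18, n = 4 each) and in the P30 hippocampus (45.7 ± 4.36 against 69.1 ± 6.76, n = 4 each). Hint1, which codes for a nucleotide hydrolase, was called higher in the P30 amygdala (76.9 ± 2.78 against 54.9 ± 1.61, n = 4 each). Tnip1, an inhibitor of NF-kB signalling, was called higher in the P60 frontal cortex (36.8 ± 2.81, n = 4, against 21.4 ± 2.15, n = 3). The log2 differences of Hint1 (0.13 to 0.48) and Tnip1 (0.33 to 0.76) were above 0 in all 7 settings. Each was called only in the region and age given. Genes near Cdc42se2 thus differed in both directions. Within 500 kb of each of the other 6 members, 0 genes were called in any of the 7 settings, and 7 to 59 were tested. Over all genes tested, 0.0159% to 0.049% were called in these settings, so windows of this size would rarely hold a called gene. Cdc42ep4, also on chromosome 11, lies 70.38 Mb from Mir146.

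**Figure D2:**
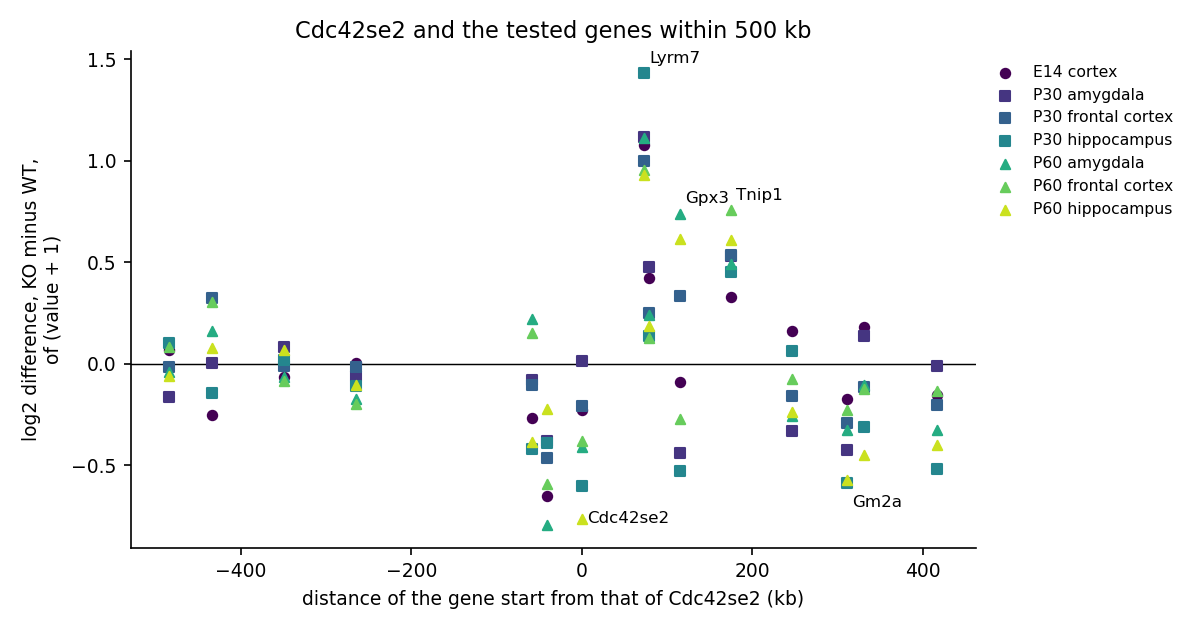
KO minus WT as a log2 difference of (value + 1) (y axis) for Cdc42se2 and the tested genes within 500 kb, by the distance of their start from that of Cdc42se2 in kb (x axis); colours and shapes are the 7 settings. Lyrm7, Hint1 and Tnip1 are above 0 in all 7 settings, and Gm2a and the pseudogene Gm12229 within Cdc42se2 are below 0 in all 7. Labels mark Cdc42se2, Lyrm7, Tnip1, Gm2a and Gpx3, of which Gpx3 was not called in any setting.

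Reads of overlapping genes could enter a member's count, since whether counting used the strand is not given in the sources used here. Cdc42se2 overlaps Gm12227, on the other strand, and the processed pseudogene Gm12229, whose values reached at most 5.27 and 4.19 in any library. The log2 difference of Gm12229 between KO and WT was below 0 in all 7 settings (-0.79 to -0.22) and was not called in any. No stretch of 50 bases of its transcripts was shared with a transcript of another gene (0 of 3704). Cdc42se1 overlaps the opposite-strand gene Mllt11 over 3440 bases of gene span and also shared 0 of 3282 stretches. Cdc42 shared 2.19% of its stretches with 3 other genes, Cdc42ep2 3.12% with 232, and Cdc42ep3 6.33% with the opposite-strand gene Gm17315, so the values of these genes are less certain.

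The other 6 members gave 36 KO minus WT differences outside the P30 hippocampus. None was called with limma, where 0.0159% to 0.049% of all genes tested were called in these settings. Of the 36, 1 had an unadjusted p under 0.05, and the lowest adjusted p was 0.583 (limma). The differences were small for the abundant members: the KO mean of Cdc42 was 94.0% to 104% of the WT mean over the 7 comparisons, and that of Cdc42se1 92.5% to 108%.

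**Figure D3:**
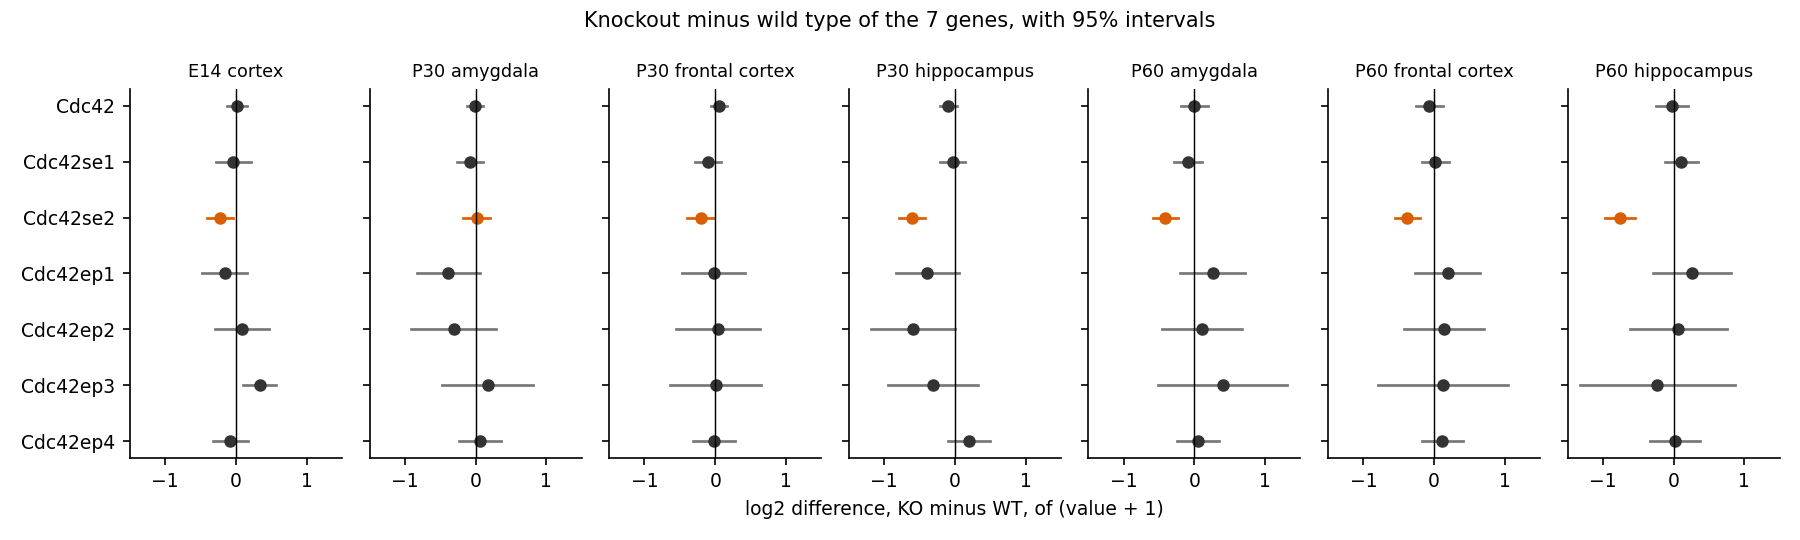
KO minus WT as a log2 difference of (value + 1) (x axis) with 95% intervals for the 7 genes (rows) in the 7 settings (panels), with Cdc42se2 in orange. The intervals of Cdc42se2 lie below 0 in 5 of the 6 other panels, that of Cdc42ep3 lies above 0 in the E14 cortex, and the P30 hippocampus panel holds the comparison that led to the choice of genes and is no test.

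Cdc42 (ENSMUSG00000006699; chromosome 4, 137319696 to 137357720, GRCm38) lay between 158.15 and 216.21 in all 43 postnatal libraries. In the P60 frontal cortex it was 166.74, 174.71, 174.63 and 158.15 in KO and 178.28, 174.77 and 177.62 in WT. The genotypes did not overlap, by a margin of less than 0.1 between the nearest libraries, and the log2 difference was -0.07 (95% interval -0.26 to 0.12, adjusted p 1.00, limma). Cdc42se1 (ENSMUSG00000046722; chromosome 3, 95228732 to 95236409) was 46.91 and 46.16 in KO and 41.23, 42.98 and 45.25 in WT in the P60 hippocampus. Its KO libraries lay just above the WT libraries, with a log2 difference of 0.11 (95% interval -0.13 to 0.34, adjusted p 1.00, limma). In that region 6.15% of genes had KO above WT without overlap.

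Of the Borg genes, Cdc42ep3 (ENSMUSG00000036533; chromosome 17, 79333727 to 79355091) was the only member with KO above WT without overlap in the E14 cortex, where 0.643% of genes showed this. Its values were 17.83, 18.74, 18.38, 21.18 and 24.07 in KO and 17.17, 14.72, 15.69 and 14.91 in WT. The nearest libraries of the genotypes were close together. The log2 difference was 0.33 (SE 0.104, 95% interval 0.11 to 0.56), with an unadjusted p of 0.00781 and an adjusted p of 1.00 (limma). Cdc42ep1 (ENSMUSG00000049521; chromosome 15, 78842624 to 78850897) was 10.92, 9.26, 9.26 and 8.64 in KO and 8.23, 7.85 and 8.49 in WT in the P60 frontal cortex. KO lay just above WT there, as for 2.68% of genes, with a log2 difference of 0.19 (95% interval -0.27 to 0.65, adjusted p 1.00, limma). Cdc42ep1, the member with a seed match, was not called higher in any tested setting, where 0.0159% to 0.049% of genes were called. It held only 19 to 114 reads per library. Its KO mean was below the WT mean in 4 of 7 settings, the P30 hippocampus among them. The part of the seed match in these values was not tested. Cdc42ep2 (ENSMUSG00000045664; chromosome 19, 5915636 to 5924816) and Cdc42ep4 (ENSMUSG00000041598; chromosome 11, 113726850 to 113751881) overlapped between the genotypes in all 7 settings.

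**Figure D4:**
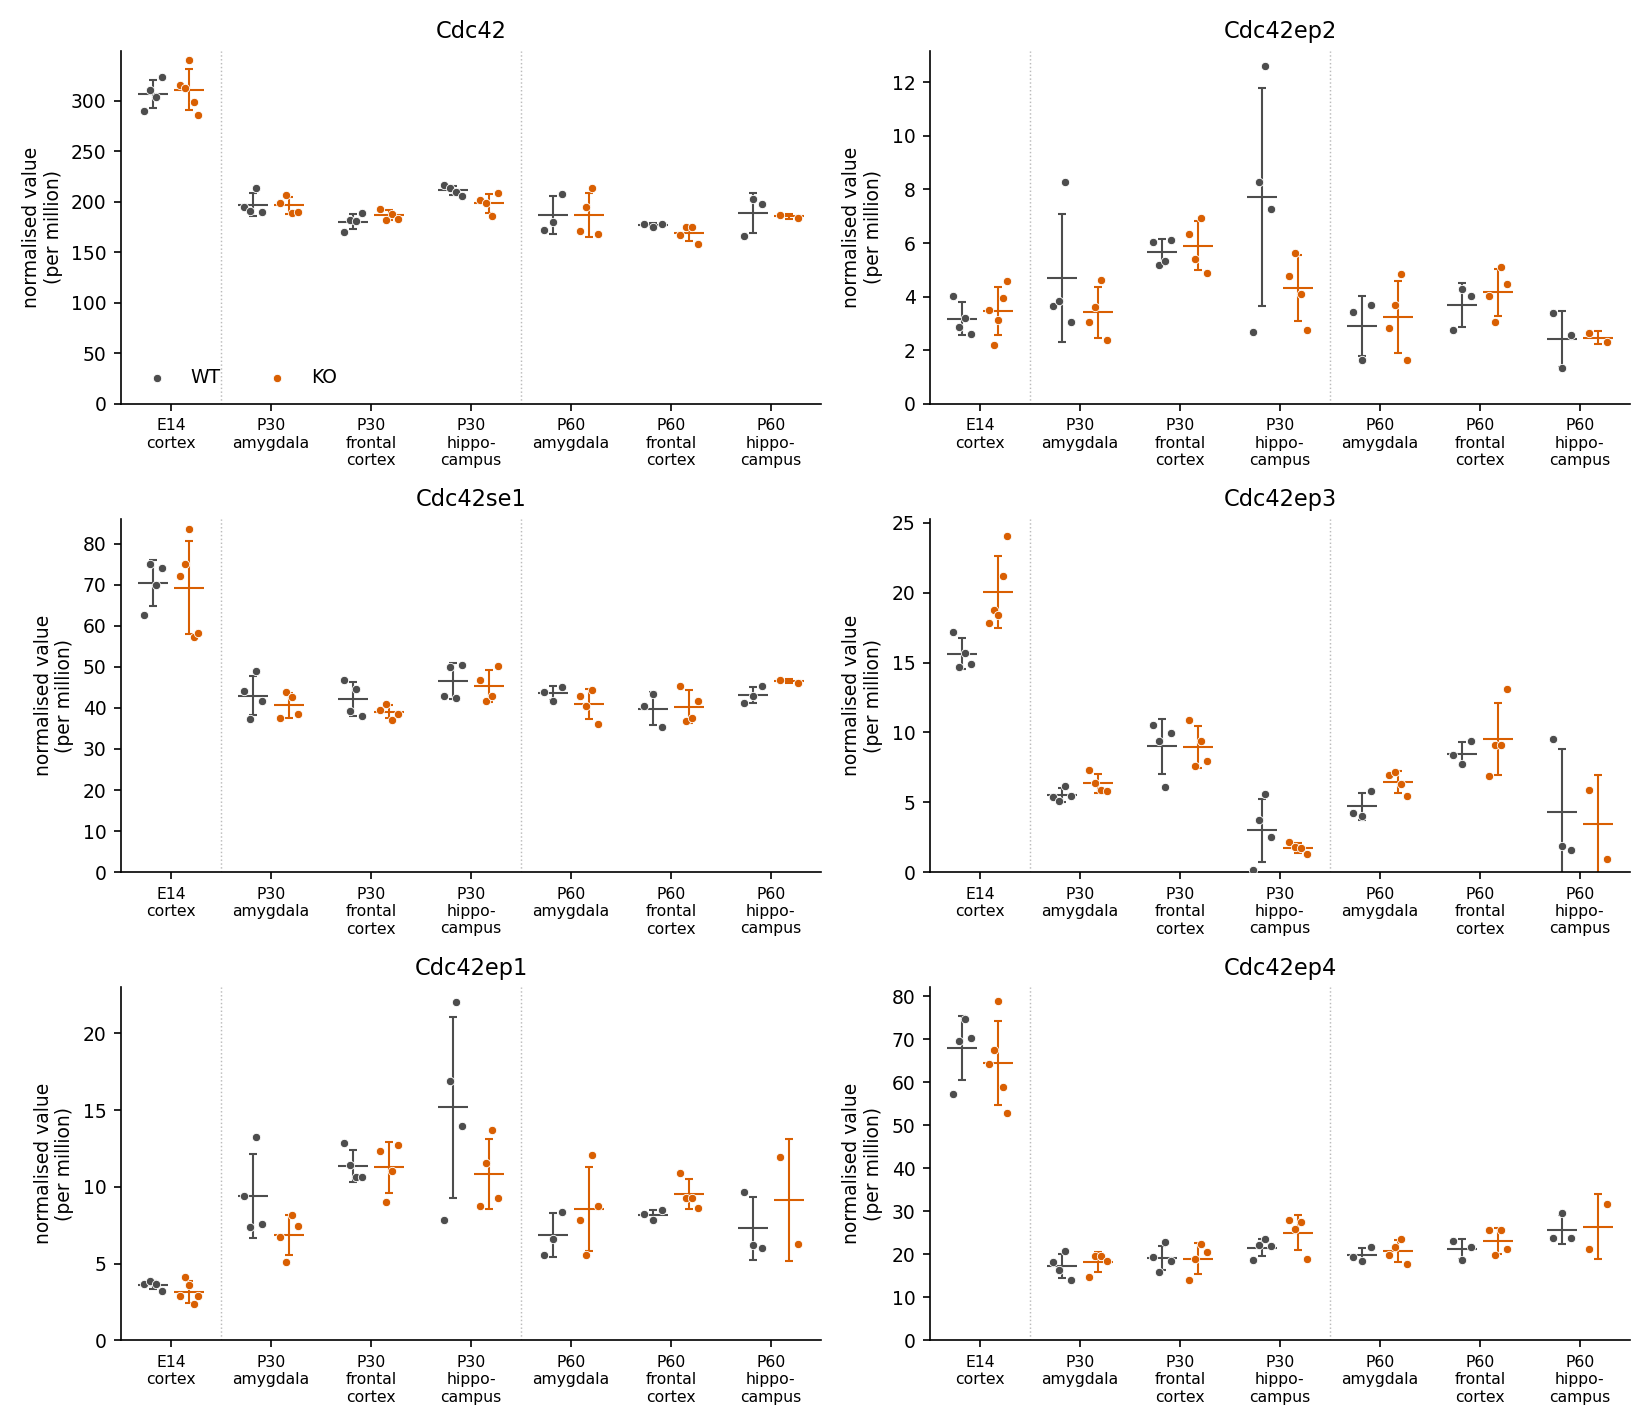
Normalised read counts (CPM; y axes, each starting at 0) of the other 6 genes in every library, by age and region (x axes); dots are libraries, long dashes are means and bars are SD, stopped at 0 where they would go below it, with WT in grey and KO in orange. Cdc42 and Cdc42ep4 are highest in the E14 cortex, Cdc42ep1 is lowest there, and Cdc42ep3 is low in most hippocampus libraries.

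In the P30 hippocampus, Cdc42ep2 was 4.78, 5.64, 4.11 and 2.75 in KO and 2.68, 8.29, 12.61 and 7.28 in WT. WT replicate 1 was the lowest of the 8 libraries and the other WT libraries were the 3 highest. Cdc42ep1 showed the same order of WT libraries, at 7.86, 16.88, 22.02 and 13.97, with KO at 8.77, 11.56, 13.71 and 9.28. The 6 myelin markers summed to 5151, 12251, 17586 and 10809 in the same 4 WT libraries and to 4645 to 7976 in KO. All 6 were lower on average in KO (median log2 difference -0.76) and 0 were called. The part of myelinating cells in the values of Cdc42ep1 and Cdc42ep2 was not tested. Over the 6 members other than Cdc42se2, the log2 differences in this region ran from -0.60 in Cdc42ep2 to 0.20 in Cdc42ep4. The value of Cdc42ep2 hung on single WT libraries: it was -0.96 without WT replicate 1 and -0.33 without WT replicate 3.

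The WT regions were then compared within an age, with the test on all genes. Same-numbered libraries of different regions may come from 1 animal, which the labels do not say, and the test took them as independent. A fit with genotype and number as a random animal block called the same number of members in each region pair. At P30, 2 of 7 members were called between hippocampus and frontal cortex (30.1% of all genes were called), 2 between hippocampus and amygdala (30.3%) and 0 between amygdala and frontal cortex (22.9%; 1 member at an unadjusted p under 0.05). The members' shares were thus near or below those of all genes.

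Cdc42 was higher in the WT hippocampus than in the frontal cortex at P30. Its values were 216.21, 213.49, 209.25 and 205.51 in the hippocampus and 169.99, 181.48, 180.52 and 188.37 in the frontal cortex. The regions did not overlap, as for 25.9% of genes, and the log2 difference was 0.23 (SE 0.0563, adjusted p 0.00277, limma). At P60 the difference was 0.09 (95% interval -0.11 to 0.29, adjusted p 0.582, limma), with 166.41, 202.83 and 198.01 in the hippocampus and 178.28, 174.77 and 177.62 in the frontal cortex. The low hippocampus value was the library numbered 1, which carried amygdala markers.

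Cdc42ep3 was lower in the WT hippocampus than in both other regions at P30. It was 0.18, 3.70, 5.56 and 2.53 in the hippocampus, 10.52, 9.39, 6.13 and 9.99 in the frontal cortex and 5.35, 5.09, 6.20 and 5.46 in the amygdala. All hippocampus libraries lay below all frontal cortex libraries, while the highest, replicate 3, reached into the amygdala range. The log2 difference was -1.55 from the frontal cortex (SE 0.310, adjusted p 0.000470, limma) and -0.95 from the amygdala (SE 0.310, adjusted p 0.0226, limma). WT replicate 1, with 1 read of this gene, weighed on both: without it they were -1.04 and -0.45, and the latter lost its call (adjusted p 0.0809), as it did without amygdala replicate 3 (adjusted p 0.0502) and with only the groups compared (adjusted p 0.181). The sizes also depended on the scale, since values were low: with a pseudocount of 4 the differences were -0.94 and -0.51, with 0.1 they were -2.16 and -1.49, and with voom on recovered reads -2.18 and -1.41, all called. The KO libraries did not enter these WT differences, but they did enter the spread that the test used. They gave 2.13, 1.79, 1.71 and 1.3 in the hippocampus, 10.87, 7.61, 9.36 and 7.97 in the frontal cortex, and 7.32, 6.39, 5.88 and 5.83 in the amygdala. Among them the hippocampus did not overlap either region. The share of all genes without overlap between regions was not examined in KO. Between WT hippocampus and frontal cortex at P30 it was 25.9%.

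At P60 Cdc42ep3 was 9.54, 1.89 and 1.55 in the WT hippocampus and 5.90 and 0.92 in the KO hippocampus, against 8.37, 7.71 and 9.39 in the WT frontal cortex. In each genotype the high hippocampus library was the one numbered 1, which also had amygdala markers and 446 (WT) and 294 (KO) for 3 striatum markers, against 25.8 to 28.7 in the others. The P60 amygdala libraries had Cdc42ep3 of 4.04 to 5.80 in WT and 5.45 to 7.20 in KO. The part of tissue from another region in the hippocampus values was not tested. The log2 difference of WT hippocampus from frontal cortex was -1.15 (SE 0.460, adjusted p 0.0990, limma), and -1.80 (adjusted p 0.00137) without WT replicate 1. In the P60 comparisons of WT regions 0 of 7 members were called in each pair, where 17.9% (hippocampus and frontal cortex), 9.58% (amygdala and frontal cortex) and 16.6% (hippocampus and amygdala) of all genes were called; 2, 1 and 1 members had an unadjusted p under 0.05.

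**Figure D5:**
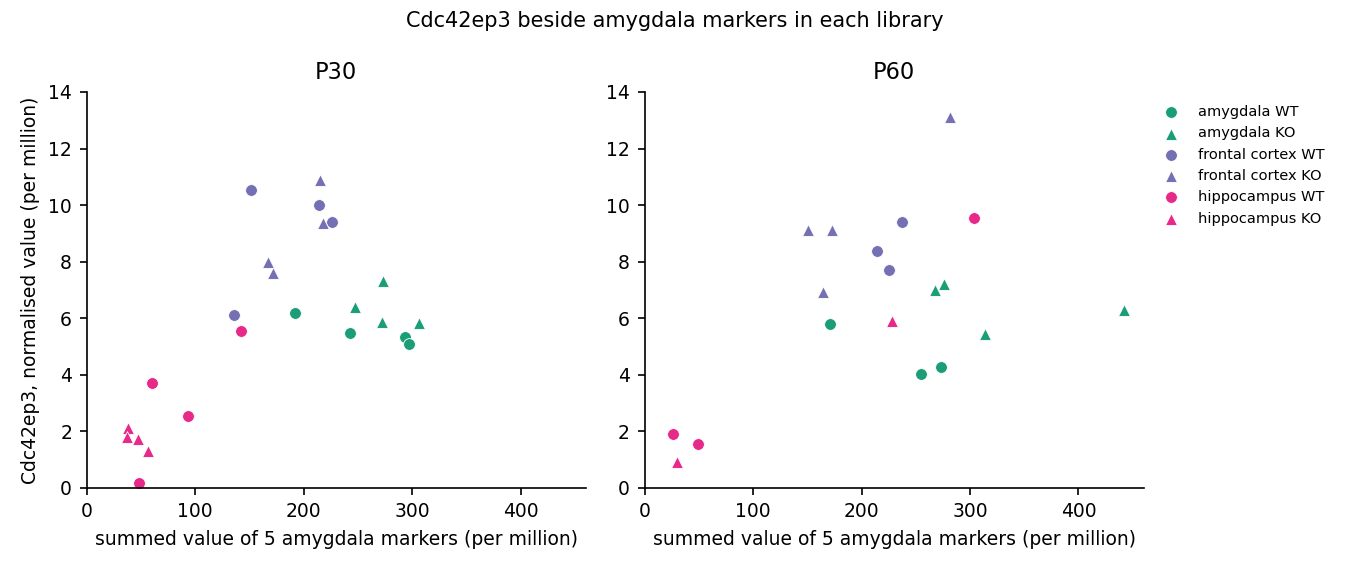
Cdc42ep3 as a normalised read count (CPM, y axis) against the summed CPM of 5 amygdala markers (x axis) in each library at P30 and P60; colours are regions, circles WT and triangles KO. At P60 the 2 hippocampus libraries numbered 1, at 304 and 228 on the x axis, have Cdc42ep3 of 9.54 and 5.90, and the other 3 hippocampus libraries have 0.92 to 1.89.

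Cdc42ep1 was called higher in the WT hippocampus than in the amygdala at P30, with 7.86, 16.88, 22.02 and 13.97 against 9.43, 7.40, 13.25 and 7.55. The regions overlapped, and the log2 difference of 0.59 (SE 0.215, adjusted p 0.0403, limma) was smallest without hippocampus replicate 3, at 0.39 (adjusted p 0.159). The call was lost without any 1 of 6 libraries (hippocampus replicates 2, 3 and 4, amygdala replicates 1, 2 and 4), with no filter on low values (adjusted p 0.0625) and with only the groups compared (adjusted p 0.189). In that library myelin markers summed to 17586. In WT, Cdc42se2 was called in no pair of regions at P60, with group means of 76.8 to 90.2. Its widest gap there was between amygdala and frontal cortex (0.23, 95% interval 0.041 to 0.42, adjusted p 0.119, limma), whose libraries did not overlap, as for 31.3% of genes. The WT means at P30 were 83.3 to 89.3.

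Across ages, levels are set side by side without a test, since each age was normalised separately and the E14 sample was whole cortex while the later ones were frontal cortex. Cdc42 had a WT mean of 307 at E14, 180.1 at P30 and 177 at P60. Cdc42ep4 had 67.9, 19.1 and 21.2, so that its E14 mean was 3.55 times that of P30. Cdc42ep1 went the other way, with 3.6025 at E14, 11.4 at P30 and 8.19 at P60. For every member except Cdc42se2, the E14 libraries did not overlap those of P30 in either genotype. In Cdc42se2 they overlapped in KO only. The share of all genes without overlap between these ages was not examined. Cdc42se1 (70.5, 42.2 and 39.8) and Cdc42ep3 (15.6, 9.01 and 8.49) were also highest at E14, while Cdc42se2 (100.2, 83.3 and 76.8) differed less. Cdc42ep2 had 3.18, 5.66 and 3.68.

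The regulators and other partners of Cdc42 were examined as lists. Between KO and WT, 0 genes were called in any of the 7 settings among 22 tested GEFs, 15 GAPs and GDIs, 22 or 23 other effectors and 11 septins. Over all genes tested, 0.0159% to 0.049% were called in these settings, so lists of this size would rarely hold a called gene. In the P60 hippocampus the median log2 difference was -0.06 for GEFs, -0.01 for GAPs and GDIs, 0.04 for other effectors and 0.06 for septins, against 0.01 for all genes.

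Between WT hippocampus and frontal cortex at P30, 9 of 22 GEFs were higher and 5 lower, where 13.8% of all genes were higher and 16.3% lower. Dock10, an exchange factor for Cdc42, was 326 ± 70.3 in the hippocampus and 117 ± 17.5 in the frontal cortex (SD, n = 4 each; log2 difference 1.45, adjusted p 7.63e-07, limma), and its relative Dock11 was 44.7 ± 7.93 against 14.4 ± 2.79. Of 15 GAPs and GDIs 4 were higher and 4 lower, and Arhgap32, a GAP of synapses, was 288 ± 31.4 against 850 ± 36.1 (log2 difference -1.56, adjusted p 1.45e-11, limma). Of 22 other effectors 5 were higher and 7 lower. The scaffold Iqgap2 was 238 ± 85.0 against 52.1 ± 3.63, and Fnbp1l, which links Cdc42 to actin assembly at membranes, was 50.9 ± 16.6 against 183.6 ± 8.52. Of 11 septins, the filament proteins that Borg proteins bind, 1 was higher and 5 lower, with Sept11 at 101 ± 8.65 against 238 ± 19.9. At P60 the counts were 8 higher and 1 lower for GEFs, 2 and 3 for GAPs and GDIs, 4 and 5 for other effectors, and 0 and 5 for septins, where 8.14% of all genes were higher and 9.78% lower.

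Genes whose pattern was most like that of a member were sought over the 24 P30 libraries by Pearson's r of log2(value + 1) among 18598 genes. These libraries share regions and genotypes, so r is a description. They include the hippocampus libraries whose values of Cdc42se2 led to the choice, so its likeness draws partly on those values. Among the highest for Cdc42 were Stpg1 (r = 0.894) and Lrrn1 (0.83), and Stpg1 starts 1.86 Mb from Cdc42 on chromosome 4. For Cdc42se2 they were Kif3a (0.708), which codes for a kinesin motor subunit and starts 1.22 Mb away on chromosome 11, Zfp462 (0.689) and Gm5526 (0.680). Cdc42 and Cdc42se2 themselves had r = 0.202, and Cdc42 and Cdc42ep3 had -0.57.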

How the data were processed

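RNA-seq of 52 mouse brain libraries in 14 groups of genotype, age and region was analysed from 3 deposited tables, 1 per age. The authors' values are normalised counts (CPM) on an effective library size, in decimal-comma notation, and are recorded as another unit than plain CPM because column totals ran from 945861 to 1039135. Each deposited value was a whole multiple of a library's step within 0.1 read (100.0% of values), which gave the depth in reads per library: 8079912 to 9469214 for E14, 2933026 to 8141105 for P30, and 5322181 to 7379353 for P60. The submitters' processing notes name mm9, edgeR, DESeq and limma without saying what each did. Aligner and counter were not given in the sources used here. Per the labels' protocols, libraries were stranded poly-A pairs. A growth protocol on human neural stem cells was not used, and the sample labels (frontal cortex, P60) were followed where the design text differs.

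Each age was fitted over all its groups with limma 3.58.1 (trend, robust; R 4.3.3) on log2(value + 1), which understates changes of low genes, with Benjamini-Hochberg adjustment at 0.05. A gene was kept where the number of libraries with 10 reads (scaled to median depth) reached the size of the smallest group and its reads totalled 15, leaving 18350 (E14), 18915 (P30) and 19256 (P60). The planned count test was not run on the recovered reads. The deposited values were tested on a log scale, with voom on those reads as an alternative. Joins and figures used Python 3.11.15 and pandas 2.3.3. Scripts were tested on simulated data. Positions are from GENCODE M21 on GRCm38, which gave symbols for 48058 of 48526 IDs, and not from mm9. Intervals are 95%. P-values measure the spread between these libraries only.

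The members and all lists were chosen with earlier results of these data known. The 7 members were always named; the other genes named were neighbours called in a comparison of the genotypes, the 3 most like Cdc42 and Cdc42se2 at P30 (some genes are not reported here), and, of the pathway lists, some of the up to 3 with the largest region difference. Pairing of libraries by number was checked by correlation. The main fits, that of the P60 amygdala among them, did not use pairing, which entered only through the blocks among the alternatives. KO and WT numbers counted as paired in the P60 amygdala, where same-numbered libraries had correlations of deviations of 0.210 to 0.321 over 3 pairs. In the P60 hippocampus these were 0.496 and 0.624, over 2 pairs. Across regions at P60, same-numbered libraries were also paired by this check between amygdala and frontal cortex in both genotypes (lowest 0.109 in KO and 0.150 in WT) and between amygdala and hippocampus in WT (lowest 0.102). Sex matched by number across the regions at P30 and P60. Alternatives were other pseudocounts and filters, other scalings, fits on only the groups compared, blocks, sex, and leaving out each library.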

Additional observations from a re-analysis of the deposited data

Results flagged for a closer look

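Cdc42ep2 stood apart in 1 library: WT replicate 3 of the P30 amygdala had 8.26, while the other 3 WT libraries had 3.05 to 3.85. The gap to the nearest library was large against the range of the group. That library also had the highest sum of 6 myelin markers in its group, 6443 against 1669 to 2464, and of 6 astrocyte markers, 9200 against 6241 to 6923. It had the lowest sum of amygdala markers, 192 against 242 to 297, and the highest of striatum markers, 176 against 37.6 to 51.8, and of frontal cortex markers, 465 against 234 to 276. The part of these cells or regions in the value was not tested. It was 1 of 70 pairs of a member and a group examined this way, and chance flags about 1 in 20.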

How the results depend on the processing

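In all, 2058 log2 differences of the members were recomputed under other settings: 1874 kept their call and sign, 15 lost a call, 21 gained one and 148 changed sign, of which 1 was called in a fit. The main differences of those that changed sign were at most 0.63 in size. The edgeR and DESeq2 count tests were not run, and limma's voom on recovered reads and a trimmed-mean scaling were added after seeing the data, as was leaving out both P60 hippocampus libraries numbered 1. Cdc42se2 in the P60 hippocampus ranged from -0.83 to -0.70 over single left-out libraries and was -0.81 (adjusted p 0.00239, limma) with the replicate block. The block changed no call of a member between the genotypes, but 7 genes in place of 4 were called in the P60 amygdala, 12 in place of 6 in the P30 hippocampus and 3 in place of 9 at E14.

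Leaving out single libraries moved Cdc42se2 in the P30 amygdala between -0.057 and 0.062, Cdc42ep3 in the P30 hippocampus (KO minus WT) between -0.81 and 0.011, and the WT difference of Cdc42se2 between hippocampus and amygdala at P60 between -0.055 and 0.022. The latter was 0.0503 with trimmed-mean scaling and 0.0501 with voom. At P30 it was -0.22 with both genotypes averaged, which brings in the KO hippocampus. In the P30 hippocampus, where Cdc42se2 was chosen for its difference and the count is no test, 1 to 3 members passed between KO and WT without single libraries (3 without WT replicate 1) and 0 with only the groups compared. In the P60 hippocampus the count was 0 to 1 without single libraries (0 without KO replicate 2), 0 with only the groups compared and 0 without both libraries numbered 1. For amygdala against frontal cortex, averaging genotypes gave 2 (P30) and 1 (P60) members, and only the groups compared gave 1 and 1. For hippocampus against amygdala at P30 the count was 4 with genotypes averaged, 1 with no filter, 0 with only the groups compared and 1 to 3 without single libraries. At P60 it was 2 with genotypes averaged and 0 to 1 without single libraries. For hippocampus against frontal cortex, averaging gave 4 (P30) and 1 (P60), and single left-out libraries gave 0 to 1 at P60. The P30 hippocampus counts with genotypes averaged bring in the values of Cdc42se2 that led to the choice. They are no test of that gene. The cause of these changes in count was not tested, except that fits on fewer groups or libraries have fewer degrees of freedom.

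Over all genes, the count called between KO and WT ranged from 3 to 13 at E14 (9 in the full fit), 4 to 11 in the P30 amygdala (5), 2 to 5 in the P30 frontal cortex (3), 2 to 266 in the P30 hippocampus (6; 266 without WT replicate 1), 3 to 7 in the P60 amygdala (4) and frontal cortex (6), and 0 to 5 in the P60 hippocampus (4). For WT regions at P30 it ranged from 4176 to 8199 for hippocampus against frontal cortex (5694), 3288 to 7069 for amygdala against frontal cortex (4338) and 3256 to 8360 for hippocampus against amygdala (5737), and at P60 from 2089 to 6308 (3450), 785 to 6033 (1845) and 1869 to 5573 (3200). Depth limits Cdc42ep1, Cdc42ep2 and Cdc42ep3, with postnatal medians of 22 to 66.5 reads per library.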
